A study of Homo sapiens with 6 samples.

Results

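The axon guidance transcripts described here are the semaphorins, plexins, neuropilins, ephrins, Eph receptors, SLITs, ROBOs, netrins, DCC and UNC5 receptors. They were chosen by gene symbol alone, from classes 3 to 7 of the semaphorins and the named members of the other families, and no measured value enters that rule, although the families were proposed with earlier results of these data known. The rule found 66 of the 19823 genes listed. RNA-seq was performed on 6 samples of iNeurons, which are human glutamatergic excitatory neurons made from the induced pluripotent stem cell line WTc11. RBM12, which encodes a nuclear RNA-binding protein, had been depleted by CRISPR interference in all 6 samples. The RBM12-depleted neurons of 3 samples were left untreated, and those of the other 3 were treated with isoproterenol, a beta-adrenergic agonist that raises cAMP. The labels give no dose, duration or culture number, and no neurons with a control guide were analysed here. According to the study's methods, differentiation was driven by a doxycycline-inducible NGN2 transgene in the parental line, which was not engineered to carry extra receptor. Every value therefore belongs to a single engineered line with a single driven neuronal program. The comparison asked how activating the native receptor moved guidance transcripts in neurons that lacked normal RBM12.

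Guidance cues tell a growing axon where to go. Semaphorins act through plexins, with neuropilins as co-receptors for most secreted members, and ephrins act through Eph receptor tyrosine kinases in contact between cells. SLITs repel axons through ROBO receptors, and netrins attract or repel depending on whether DCC or an UNC5 receptor is engaged. Cyclic AMP is known to set whether several of these cues attract or repel a growth cone, and transcription through cAMP commonly runs through CREB at the cAMP response element.

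Between 18116816 and 21488793 reads fell on genes per sample, and the guidance members took 0.580% to 0.606% of them. RBM12 itself measured 244, 279 and 267 normalized counts in the untreated samples and 195, 238 and 233 in the isoproterenol samples, with no unperturbed neurons to set the knockdown against. Every isoproterenol value of RBM12 lay below every untreated one. Its log2 fold change was −0.25 ± 0.11 (SE, limma, adjusted p = 0.607, and 0.131 with the replicate number as a block). All 14 genes of the glutamatergic list were present, although that list also holds general neuronal genes such as MAP2 and TUBB3. SLC17A6, the vesicular glutamate transporter of immature and subcortical neurons, lay at 12393 to 14710. TUBB3, the neuronal tubulin, lay at only 69.2 to 94.4. It shares 1584 exonic bases (21.3% of its exons) with another protein-coding gene on the same strand. How reads there were assigned is not given in the sources used here, so its level is uncertain. Of 7 pluripotency markers, 3 were among the genes listed. SOX2 was at 0 in 5 of the 6 samples and at 1.03 in isoproterenol replicate 3. LIN28A (9.23 to 18.6) and POU5F1 (1.03 to 10.4) were low but above 0 in every sample. Of 6 proliferation markers, 2 were listed, CCNB1 at 112 to 147 and PCNA at 249 to 326. Of 12 immediate early genes, 10 rose with isoproterenol at FDR 0.05 with the replicate number as a block, beside 2.82% of all genes. Without the block 1 passed (NR4A3), beside 0.0165% of all genes. NR4A1 and DUSP1 did not pass with the block (adjusted p in limma 0.119 and 0.138). Even so, NR4A1 was higher in every isoproterenol sample (325, 543 and 1024) than in every untreated one (103, 110 and 136).

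Guidance transcripts covered 3 orders of magnitude in the untreated neurons. Levels here are normalized counts per kilobase of exon, which allow genes to be compared with each other. SEMA3E, a secreted semaphorin, stood highest at 1283 ± 4.84 (SD, n = 3). ROBO1, a SLIT receptor, followed at 999.7 ± 123, and UNC5D, a repulsive netrin receptor that also binds FLRT proteins, at 983 ± 64.5. ROBO1 and UNC5D did not differ beyond their spread. EFNB3 (686 ± 37.2), a transmembrane ephrin, and PLXNA1 (659 ± 15.7), a semaphorin receptor, came next and also overlapped. SEMA6B (553 ± 30.9), EPHB1 (506 ± 32.7) and SLIT1 (498 ± 22.1) formed the following group.

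Ligands and their known receptors were unevenly expressed. PLXND1, the receptor that binds SEMA3E directly, lay at 22.4 ± 0.884 per kilobase. In the netrin system the receptors DCC (138 ± 8.36), UNC5A, UNC5C and UNC5D were above the netrins, of which NTN3 was highest at 39.5 ± 3.30, while the receptor UNC5B (33.1 ± 1.76) lay below NTN3. In the SLIT system both sides were high, SLIT1 beside ROBO1. Of the 66 members, 43 averaged 500 or more normalized counts over the 6 samples and 6 averaged under 50. NTN4, at 2.99 to 11.3 normalized counts, was the only member below the limit for testing (more than 5 reads in at least 4 samples), which left 65.

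**Figure D1:**
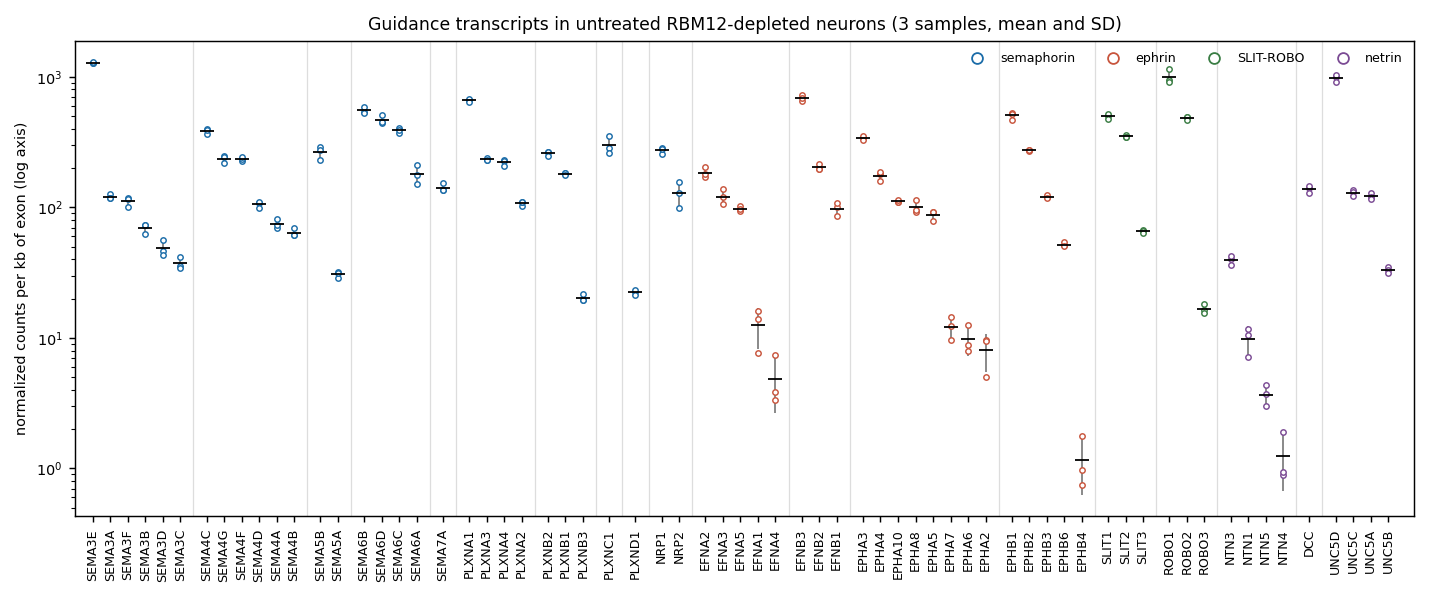
Normalized counts per kilobase of exon (log axis) for each of the 66 members in the 3 untreated samples, grouped by family and colored by system; circles are samples, black dashes means, grey bars SD. SEMA3E, ROBO1 and UNC5D lie near the top, and EPHB4 and NTN4 at the bottom.

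Changes of guidance transcripts with isoproterenol were small. Fold changes are isoproterenol over untreated on the log2(normalized count + 1) scale, and ± beside a change is its SE, from limma without the block unless the block is named. Without regard to replicate number, limma called 0 of 65 members at FDR 0.05, beside 3 of all 18130 genes tested (0.0165%), and the smallest adjusted p of any member was 0.253, for UNC5A. At an unadjusted p under 0.05, limma called 7 members (10.8%, beside 7.68% of all genes), and edgeR's quasi-likelihood test and DESeq2 each called 0 at FDR 0.05, beside 0.0165% and 0.116% of all genes. The median change of the members was −0.01, with 31 above and 34 below 0, and the median of all genes was 0.00. In 56 of the 65 members the change was under 0.2 in size. The 3 isoproterenol values lay wholly on 1 side of the 3 untreated values in 7 members (10.8%, beside 12.9% of all genes). UNC5A, PLXNA1, SLIT1 and PLXNA3 were the 4 on the higher side (beside 6.73% of all genes), and SEMA3D, SEMA3E and SEMA4F the 3 on the lower side (beside 6.19%), so these shares were near those of all genes. In these bulk samples fewer cells of a type and less RNA per cell cannot be told apart, and since nothing says that the replicates were separate cultures, p-values measure only the spread between these samples.

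Same-numbered samples of both groups deviated together, and with the number as a block limma called 13 of the 65 members at FDR 0.05, 20.0% of them beside 4.88% of all genes. Among genes that averaged 500 or more normalized counts these shares were 27.9% (12 of 43) and 9.22%. No test was made of the difference between these shares. UNC5A, SEMA5B, NRP2, SEMA6A, PLXNA1 and SLIT1 were higher (6, or 9.23%, beside 2.82% of all genes), and SEMA3D, EPHA8, EPHA4, PLXNC1, SEMA3E, ROBO1 and PLXNA4 lower (7, or 10.8%, beside 2.06%). In edgeR with the block the same 13 passed, beside 5.39% of all genes. The change had 1 sign in all 3 pairs in 34 members (52.3%, beside 36.1% of all genes). Each of the 13 was among them, moving by 0.10 to 0.36 on the log2 scale, and without the block their adjusted p in limma ran from 0.253 to 0.892. Only SEMA5B, SEMA6A, NRP2 and PLXNA1 (4 of 13) passed whichever pair was left out, and 10, 10 and 7 of the 13 passed without pair 1, 2 and 3. EPHB2, outside the 13, passed without pair 2 (adjusted p in limma with the block 0.0322, and 0.103 with all pairs). Single overlaps with other genes were small for these members. The largest were an antisense transcript over 4.67% of the exonic bases of EPHA4, 3.92% of PLXNC1, 2.46% of SEMA6A and 1.06% of NRP2. The readthrough gene ARHGAP19-SLIT1 covered 2.36% of SLIT1. PLXNC1 was overlapped by further genes of the opposite strand over 2.21%, 1.98% and 1.76% of its exonic bases, the last being the protein-coding CEP83. Of the 52 that did not pass with the block, 39 had a 95% interval within ±0.3.

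**Figure D2:**
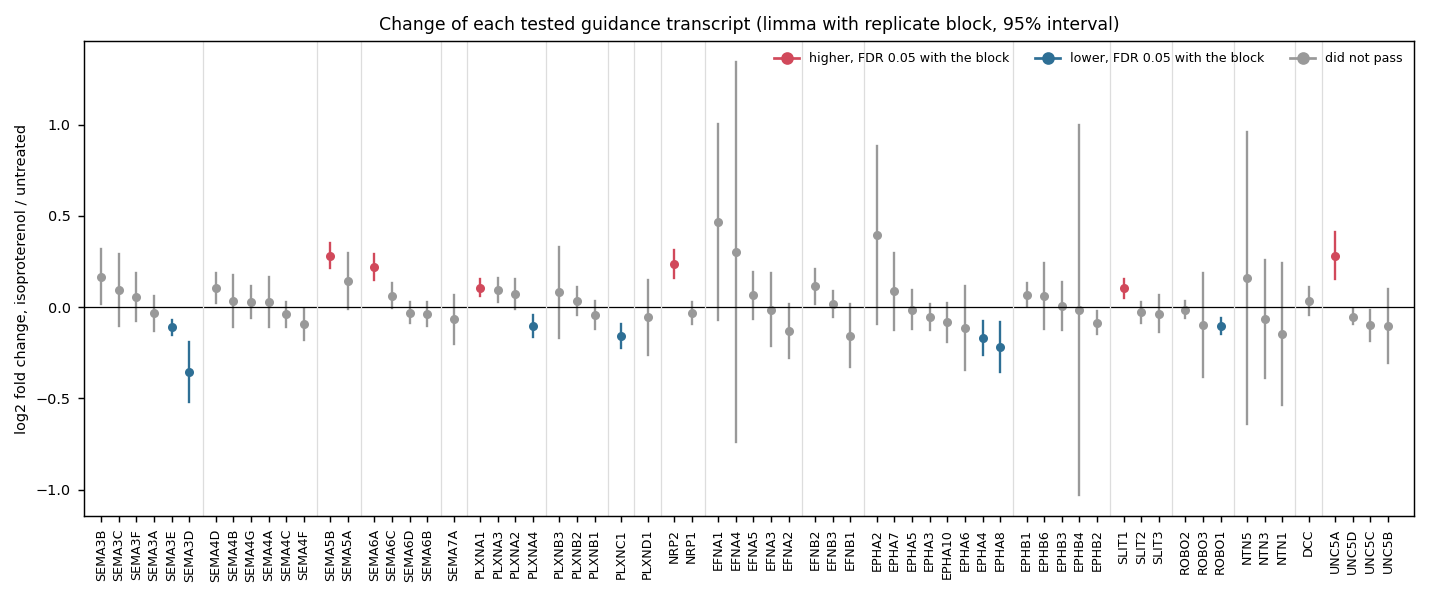
Log2 fold change, isoproterenol over untreated, of the 65 tested members by family, with 95% intervals from limma with the replicate block; red and blue mark the 6 higher and 7 lower members past FDR 0.05, grey the 52 that did not pass. Most intervals cross 0, and members with few reads, such as EPHB4 and EFNA4, have the widest.

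The counts by family that follow stand beside 2.82% of all genes higher and 2.06% lower with the block, and no family was tested against these shares. Among the 6 secreted semaphorins, 2 fell with the block and 0 rose. SEMA3D, on chromosome 7 (84995553 to 85187056, minus strand, GRCh38), measured 383, 464 and 359 normalized counts in untreated replicates 1, 2 and 3 and 349, 296 and 294 in the isoproterenol samples. Every isoproterenol value lay below every untreated one, and the mean went from 402 ± 55.3 to 313 ± 31.1 (SD, n = 3). The log2 fold change was −0.36 ± 0.08 (SE, limma with block, adjusted p = 0.00253), the largest decrease of any member. Replicate 2 fell most, by 0.65, and without that pair the adjusted p in limma with the block was 0.286.

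SEMA3E, which repels axons through PLXND1, varied little among the untreated samples and more among the isoproterenol samples. Untreated samples held 10807, 10840 and 10889 normalized counts and isoproterenol samples 10301, 10043 and 9791. The groups did not overlap, and the untreated samples lay close together (SD 40.9 around 10845). The change was −0.11 ± 0.02 (SE, limma with block, adjusted p = 0.000142). Without pair 3 the adjusted p was 0.0514.

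SEMA3B (363, 419 and 422 untreated, 463, 468 and 421 with isoproterenol), a secreted semaphorin that signals through neuropilins, had a change of 0.17 ± 0.09 in limma (adjusted p = 0.667, and 0.223 with the block). The change was 0.35 in pair 1 and −0.01 in pair 3. SEMA3C (256, 215 and 211, then 265, 211 and 252) changed by 0.09 ± 0.12 (adjusted p = 0.892). SEMA3C, SEMA3E, SEMA3A and SEMA3D lie within 4.44 megabases of each other on the minus strand of chromosome 7 (80742538 to 85187056). Their changes were 0.09, −0.11, −0.03 and −0.36 in that order.

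Of 12 transmembrane semaphorins, 2 rose with the block and 0 fell. SEMA5B (chromosome 3, 122909082 to 123028605, minus strand), a transmembrane semaphorin with thrombospondin repeats, measured 2448, 1957 and 2335 untreated and 2815, 2406 and 2974 with isoproterenol. Each isoproterenol sample was above its own pair, but isoproterenol replicate 2 lay below untreated replicate 1, so the groups overlapped. The change was 0.28 ± 0.03 (SE, limma with block, adjusted p = 3.5e-10), with pair values of 0.20, 0.30 and 0.35, and it was the smallest adjusted p of any member with the block.

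SEMA6A (chromosome 5, 116443555 to 116574823, minus strand), a ligand of PLXNA2 and PLXNA4, measured 1936, 1650 and 2305 untreated and 2215, 1979 and 2665 with isoproterenol. Replicate 3 was highest and replicate 2 lowest in both groups, and the groups overlapped. The pair changes were 0.19, 0.26 and 0.21 and the fitted change 0.22 ± 0.04 (SE, limma with block, adjusted p = 2.82e-06). The spread between pairs, 0.45 from the lowest to the highest pair mean on the log2 scale, was 2.04 times the change.

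SEMA4C, the most abundant class 4 member and a ligand of PLXNB2, had a change of −0.04 ± 0.05 in limma (2284 to 2509 untreated, 2310 to 2406 with isoproterenol, adjusted p = 0.897). SEMA4A (473 to 554, then 480 to 541) had 0.03 ± 0.08, and SEMA6B (2495 to 2768, then 2424 to 2631) had −0.04 ± 0.05. The groups overlapped for each. SEMA4F was the only class 4 member whose groups did not overlap, at 1414 to 1514 untreated and 1357 to 1386 with isoproterenol, and its adjusted p was 0.7 (0.227 with the block). SEMA7A, the membrane-anchored ligand of PLXNC1, had a change of −0.07 ± 0.08 (516, 580 and 517, then 479, 572 and 491, adjusted p = 0.893).

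Among the 4 plexin A receptors 1 rose and 1 fell with the block. PLXNA1 (chromosome 3, 126982693 to 127037389, plus strand), the signaling partner of neuropilins, measured 7424, 7576 and 7226 untreated and 8024, 8139 and 7774 with isoproterenol. The groups did not overlap, and the pair changes were 0.11, 0.10 and 0.11. The change was 0.11 ± 0.02 (SE, limma with block, adjusted p = 0.000953), a rise of the mean from 7409 ± 176 to 7979 ± 186 (SD, n = 3). PLXNA4 (chromosome 7, 132123340 to 132648688, minus strand), a receptor for SEMA6A and with neuropilins for SEMA3A, measured 3802, 3723 and 3415 untreated and 3417, 3609 and 3173 with isoproterenol. The change was −0.10 ± 0.03 (SE, limma with block, adjusted p = 0.0287), the groups overlapped, and the adjusted p was 0.357 without pair 1 and 0.166 without pair 3.

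PLXNA3 was higher in every isoproterenol sample (2851, 2997 and 2881) than in every untreated one (2682, 2778 and 2712), with a change of 0.10 ± 0.05 and an adjusted p in limma of 0.647 (0.0696 with the block). PLXNA2 (1425 to 1522, then 1450 to 1721) had a change of 0.07 ± 0.06. None of the 3 plexin B genes passed. PLXNB2 (1793 to 1930, then 1869 to 1968) had 0.03 ± 0.05 and PLXNB3, a receptor for SEMA5A, had 0.08 ± 0.13 at 136 to 153 untreated and 143 to 154 with isoproterenol. PLXNB3 shares 1432 exonic bases (20.4% of its exons) with SRPK3 on the same strand, and how reads there were assigned is not given in the sources used here. PLXND1 had −0.06 ± 0.11, with 205 to 222 untreated and 198 to 223 with isoproterenol.

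PLXNC1 (chromosome 12, 94148577 to 94307675, plus strand), the receptor of SEMA7A, measured 2841, 3556 and 2622 untreated and 2664, 3168 and 2268 with isoproterenol. Replicate 2 was highest in both groups, and the groups overlapped. The pair changes were −0.09, −0.17 and −0.21 and the fitted change −0.16 ± 0.03 (SE, limma with block, adjusted p = 0.00045, and 0.053 without pair 3). Without the block the SE was 0.18.

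Of the 2 neuropilins 1 rose with the block. NRP2 (chromosome 2, 205681990 to 205798133, plus strand), a co-receptor for class 3 semaphorins and for VEGF, measured 1787, 1381 and 2156 untreated and 2099, 1723 and 2412 with isoproterenol. Replicate 2 was lowest and replicate 3 highest in both groups. The pair changes were 0.23, 0.32 and 0.16 and the fitted change 0.24 ± 0.04 (SE, limma with block, adjusted p = 1.75e-06), with a SE of 0.22 without the block. NRP1, the other co-receptor, measured 3256, 2936 and 3244 untreated and 3175, 2922 and 3133 with isoproterenol, a change of −0.03 ± 0.05 (adjusted p = 0.927). The difference between the neuropilins was not tested.

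**Figure D3:**
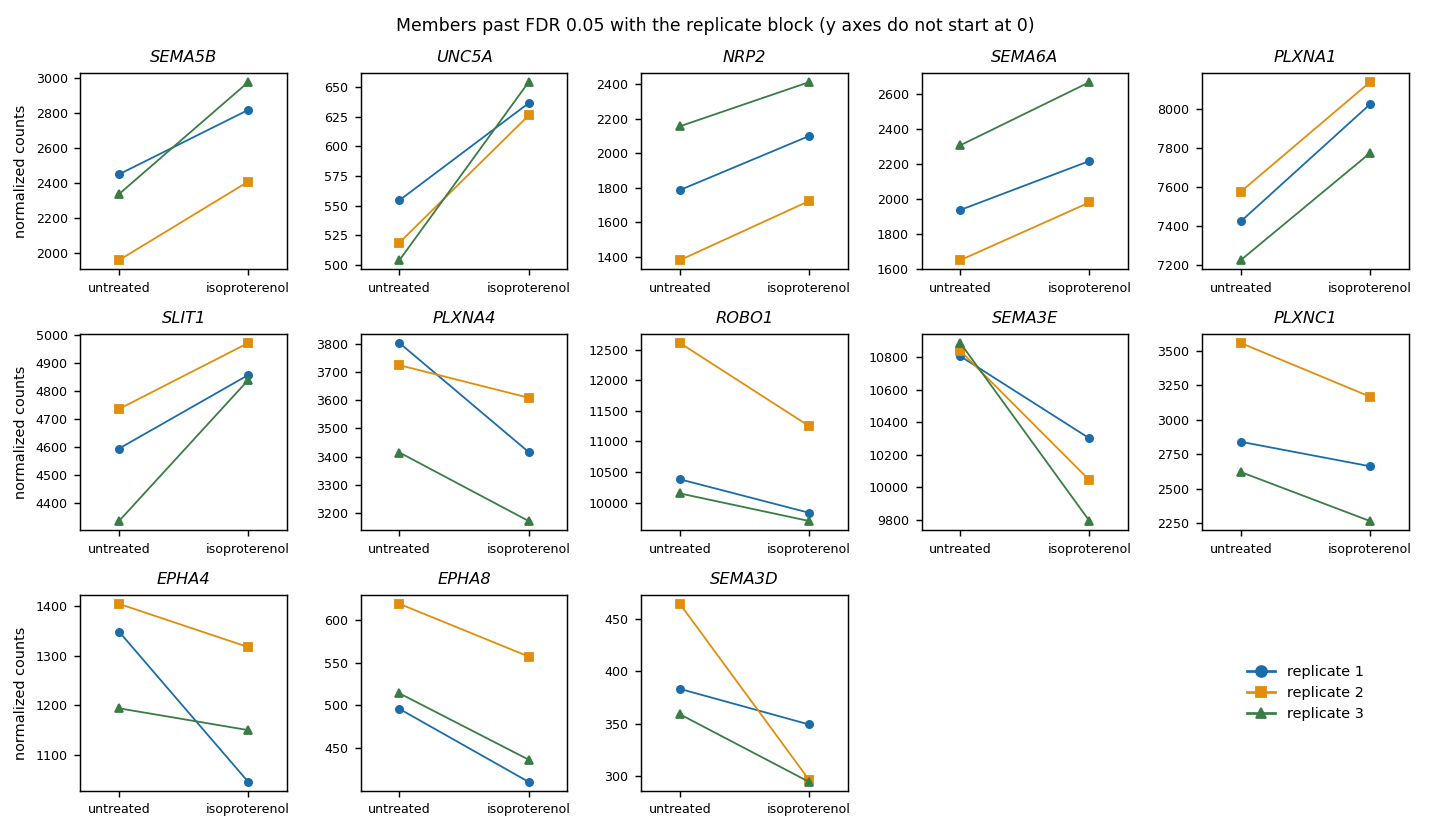
Normalized counts of the 13 members past FDR 0.05 with the replicate block, in each of the 6 samples; lines join the untreated and isoproterenol samples of the same replicate number, panels run from the largest increase to the largest decrease, and the y axes do not start at 0. In SEMA6A and NRP2 replicate 2 lies lowest, and in ROBO1 and PLXNC1 it lies highest, in both groups.

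In the ephrin system 2 of 21 members fell with the block, both of them EphA receptors, and 0 rose. Over all genes tested, 2.06% were lower and 2.82% higher with the block. Among all genes that averaged 500 or more normalized counts, 9.22% passed in either direction, but the 21 also include members with fewer counts. The difference from these shares was not tested. EPHA4 (chromosome 2, 221418027 to 221574202, minus strand), a receptor for ephrins of both classes, measured 1348, 1404 and 1194 untreated and 1046, 1317 and 1150 with isoproterenol. The decrease was 0.37 in pair 1 on the log2 scale and smaller in the others (−0.09 and −0.05). The fitted change was −0.17 ± 0.05 (SE, limma with block, adjusted p = 0.0161), and the adjusted p was 0.622 without pair 1.

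EPHA8 (chromosome 1, 22563489 to 22603595, plus strand) measured 496, 618 and 514 untreated and 411, 557 and 437 with isoproterenol. Each pair moved down (−0.27, −0.15 and −0.23), yet isoproterenol replicate 2 was above untreated replicates 1 and 3. The fitted change was −0.22 ± 0.07 (SE, limma with block, adjusted p = 0.042). It did not pass without pair 1 (0.221), without pair 2 (0.0708) or without pair 3 (0.189).

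The remaining Eph receptors and all 8 ephrins did not pass. EPHA3, the most abundant EphA receptor, had a change of −0.05 ± 0.06 (2168 to 2315, then 1977 to 2295), and EPHB1, the most abundant EphB receptor, 0.07 ± 0.05 (2737 to 3087, then 2951 to 3191). Of the ligands, EFNA2, which is held by a lipid anchor, had −0.13 ± 0.08 (411 to 493, then 399 to 423), and EFNB3, which spans the membrane, 0.02 ± 0.05 (2079 to 2316, then 2212 to 2267). The groups overlapped for all 4. The largest change of any member, 0.47 ± 0.28 for EFNA1, rested on 16.6 to 41.0 normalized counts (adjusted p = 0.733) and was named after its value was seen. EFNA3 and EFNA4 share 43.9% and 15.0% of their exonic bases with the readthrough gene EFNA4-EFNA3, so their counts are uncertain, and 36.4% of the exonic bases of EFNB2 are overlapped by an antisense transcript.

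In the SLIT and ROBO system 1 ligand rose and 1 receptor fell with the block. SLIT1 (chromosome 10, 96998038 to 97185959, minus strand), a secreted repellent, measured 4594, 4736 and 4336 untreated and 4856, 4971 and 4839 with isoproterenol. The groups did not overlap. The change was 0.10 ± 0.03 (SE, limma with block, adjusted p = 0.0114), with 0.08, 0.07 and 0.16 in the pairs and an adjusted p of 0.326 without pair 3. SLIT2 and SLIT3 had changes of −0.03 and −0.04.

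ROBO1 (chromosome 3, 78597239 to 79767998, minus strand) measured 10380, 12612 and 10149 untreated and 9833, 11252 and 9698 with isoproterenol. Replicate 2 was highest in both groups and fell most, by 0.16 on the log2 scale beside 0.08 and 0.07. The fitted change was −0.10 ± 0.02 (SE, limma with block, adjusted p = 0.000544, and 0.142 without pair 2). ROBO2, its neighbor on chromosome 3 (75906695 to 77649964, plus strand), measured 8194, 8204 and 7797 untreated and 8084, 8133 and 7735 with isoproterenol, a change of −0.01 ± 0.04 (adjusted p = 0.96).

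Of 7 peripheral and sensory neuron markers, 1 passed with the block. POU4F1, a transcription factor of sensory neurons, measured 9659, 10838 and 9259 untreated and 8569, 9965 and 8271 with isoproterenol, highest in replicate 2 of both groups as ROBO1 and PLXNC1 were, with a change of −0.15 ± 0.02 (SE, limma with block, adjusted p = 1.4e-07). None of the other 6 was highest in replicate 2 of both groups. ISL1, another sensory factor, was lowest in replicate 2 of both groups (213, 164 and 203, then 229, 180 and 217) with a change of 0.11 ± 0.13, and TH, the enzyme of catecholamine synthesis, was also lowest there (191, 157 and 229, then 186, 164 and 226). The summed level of the 7, most of it POU4F1, ran from 10573 to 12007 untreated and from 9590 to 11157 with isoproterenol. Of 7 GABAergic markers, 4 were among the genes listed, and they summed to 58.5 to 67.2 untreated and 76.1 to 88.2 with isoproterenol, without overlap. None exceeded 35.9 normalized counts, and they moved apart: GAD1 0.74 ± 0.35, GAD2 0.49 ± 0.27, LHX6 0.78 ± 0.51, SLC32A1 −0.38 ± 0.34. Of 6 astrocyte markers, 2 were listed, AQP4 (−0.27 ± 0.15) and S100B (−0.02 ± 0.21). They summed to 160 to 175 and then 134 to 157, also without overlap. How often such sums separate was not taken. No single gene of either list passed with or without the block. The glutamatergic list summed to 433428 to 467686 and then 419529 to 441096. Most of that sum was NEFM, a neurofilament gene that is not particular to glutamatergic neurons. GRIN1, an NMDA receptor subunit, was the only gene of the list to pass with the block, with a change of 0.29 ± 0.06 (SE, limma with block, adjusted p = 0.000267). The part of these markers in the guidance results was not tested.

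In the netrin system 1 of 8 tested members rose with the block. UNC5A (chromosome 5, 176810519 to 176880898, plus strand), a repulsive netrin receptor, measured 554, 519 and 504 untreated and 637, 626 and 654 with isoproterenol. The groups did not overlap, and the mean went from 526 ± 26.1 to 639 ± 14.3 (SD, n = 3). The change was 0.28 ± 0.06 (SE, limma with block, adjusted p = 0.00158, and 0.0795 without pair 3), and the adjusted p was 0.253 without the block, the smallest of any member there. UNC5A differed little between pairs, so its SE was nearly the same without the block (0.07).

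The other netrin receptors did not pass. UNC5D (10831, 9834 and 11175, then 10302, 9768 and 10626) had a change of −0.05 ± 0.05 and DCC, the attractive receptor, 0.04 ± 0.06 (1836, 1902 and 1688, then 1954, 1880 and 1729). UNC5B and UNC5C had changes of −0.10 each. NTN3, the most abundant netrin, had −0.07 ± 0.17 at 78.6 to 92.9 untreated and 68.7 to 93.8 with isoproterenol.

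For most members the spread between pairs was larger than the change with isoproterenol. In 54 of 65 members the range of the 3 pair means on the log2 scale exceeded the size of the change, and pair 2 was the highest of the 3 in 39 members. A range of 3 means tends to exceed a difference between group means even without a pair effect. The share over all genes was not taken, so these counts cannot show a trait of the members. For NRP2, SEMA6A, PLXNC1 and ROBO1 the range was 2.34, 2.04, 2.94 and 2.59 times the change, while for UNC5A and SEMA3E it was 0.202 and 0.267 times. The median SE of a member was 0.08 without the block and 0.05 with it. Of the 13 members past FDR 0.05 with the block, pair 2 was lowest for SEMA5B, SEMA6A, NRP2 and UNC5A, all of them among those that rose, and highest for SEMA3D, PLXNA4, PLXNC1, EPHA4, EPHA8 and ROBO1, which fell, and for PLXNA1 and SLIT1, which rose.

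**Figure D4:**
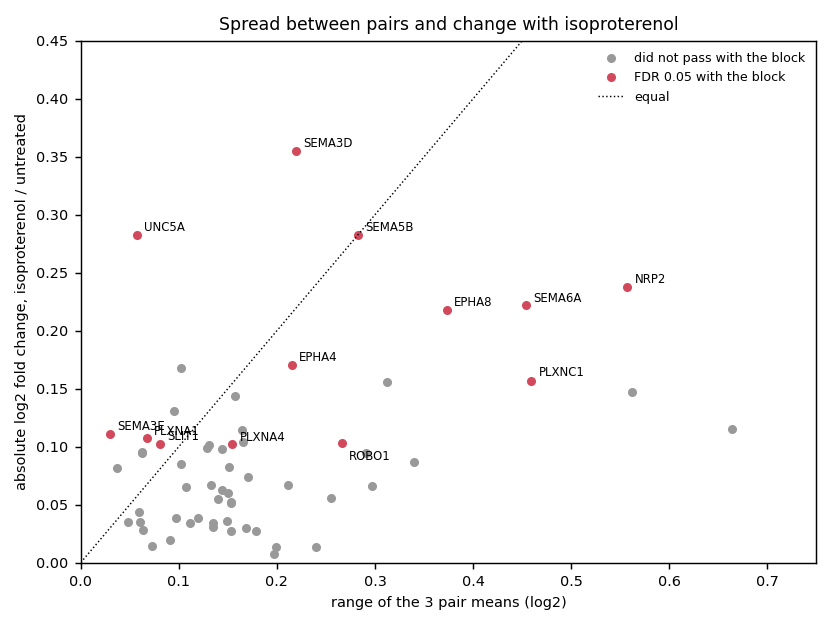
Range of the 3 pair means (x axis, log2) against the size of the log2 fold change with isoproterenol (y axis) for the tested members that averaged 50 or more normalized counts; red points passed FDR 0.05 with the replicate block and the dotted line marks equal values. NRP2, SEMA6A, PLXNC1 and ROBO1 lie below the line, and UNC5A, SEMA3E and SEMA3D above it.

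The 6 members that the study lists among its receptor targets were SEMA3B, SEMA3C, SEMA4A, SEMA7A, PLXNA2 and PLXNB3. The study chose its targets on other libraries, from neurons that overexpressed the receptor, with limits on both adjusted p and fold change. It joined targets called in neurons with a control guide and targets called in RBM12-depleted neurons. A listed gene may thus have been called only with the control guide, while all 6 samples here were RBM12-depleted. It reports that changes of its targets as a set correlated between those neurons and the native-receptor neurons. In these native-receptor neurons 0 of the 6 passed with or without the block, beside 4.88% and 0.0165% of all genes. Their median change was 0.08. At an unadjusted p under 0.05 without the block limma also called 0 of them, beside 7.68% of all genes. With only 6 genes, 0 calls cannot be told from these shares.

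Promoters were searched for the cAMP response element, since the stimulus acts through cAMP. RefSeq starts (GRCh38.p14) were found for 56 of the 66 members, with 88 promoters of 300 bases in all, from 250 bases before to 50 after each start. The full element, TGACGTCA, which reads the same on both strands, stood in 3 of the 88 (3.41%), beside 1.85% of all 35116 RefSeq promoters and 2.63% of those of tested genes. The 3 sites are shown with 10 bases on each side, from 5′ to 3′ on the gene's own strand, with the element in capitals.
SEMA3B, chr3:50260185-50260212, plus strand: tcacagaggcTGACGTCAgcgggtcccg
SEMA4C, chr2:96870103-96870130, minus strand: ccccccagccTGACGTCAaggggaaggg
EPHA2, chr1:16156103-16156130, minus strand: cgggcgttggTGACGTCAcgcagggcat
The last base of these elements lay at positions −24, −33 and −44, counted from the start. SEMA3B has several RefSeq starts, and the one beside this site lies upstream of the gene span given by GENCODE (50267558 to 50277546). None of the 3 genes passed: SEMA3B had 0.17 ± 0.09, SEMA4C −0.04 ± 0.05, and EPHA2, an EphA receptor at only 20.9 to 47.2 normalized counts, 0.40 ± 0.27.

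Of the 13 members past FDR 0.05 with the block, 12 had a promoter in the table and SEMA6A did not. None of these 12 held the full element in these windows. The element stands in only 2.63% of promoters of tested genes, so with 12 genes 0 cannot be told from that share. The 5-base core, TGACG on either strand (CGTCA on the other), which every full element also contains, stood in 21 of the 88 promoters (23.9%), beside 24.6% of all and 30.9% of those of tested genes. Counted by gene, 17 of the 56 members with a promoter held it in at least 1 promoter. Of the 12, EPHA4, EPHA8, SEMA3D and SLIT1 held it, and the difference from that count was not tested. Their sites are shown because 3 of them belong to members that fell and 1 to a member that rose.
EPHA4, chr2:221572347-221572374, minus strand: ctggcgggctcaCGTCAccggccgggcc
EPHA8, chr1:22563421-22563448, plus strand: ggctcggcgccgTGACGggccggccccc
SEMA3D, chr7:85187219-85187246, minus strand: ctgataaacatcCGTCAgcgcttggcca
SLIT1, chr10:97186181-97186208, minus strand: ccccgtgcccgcTGACGgcgcctcggag
A match describes the letters only and is neither a site shown to be bound nor a cause.

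Changes were also small in other genes of the pathway. Of 34 other guidance cues and receptors tested, 0 passed without the block and 4 with it, 2 higher and 2 lower (5.88% each, beside 2.82% and 2.06% of all genes). RGMA, a repulsive membrane-anchored cue, rose by 0.12 ± 0.03 on the log2 scale (SE, limma with block, adjusted p = 0.00109), as did DRAXIN, a secreted antagonist of netrin receptors, by 0.18 ± 0.04 (0.00223). ALCAM, an adhesion molecule, fell by 0.16 ± 0.03 (5.13e-05), and RELN, the secreted protein reelin, was the other decrease. Of 71 signaling effectors, 0 passed without the block and 8 rose with it (11.3%, beside 2.82% of all genes), none falling. Among those that averaged 500 or more normalized counts, 8 of 58 (13.8%) passed with the block, beside 9.22% of all such genes. TRIO, a guanine nucleotide exchange factor that acts below DCC, went from 7505, 6980 and 7238 to 8045, 7833 and 8090, without overlap, a change of 0.14 ± 0.02 (SE, limma with block, adjusted p = 4.6e-06). TIAM1, another exchange factor, rose by 0.24 ± 0.05 (0.00122), and PLCG1, a phospholipase below receptor tyrosine kinases, by 0.14 ± 0.03 (0.00156). The median change over the effectors was 0.04 and over the other cues 0.00, beside 0.00 over all genes.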

How the data were processed

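RNA-seq was performed by the authors on poly(A) RNA with a directional kit, reads were aligned to GRCh38 with STAR and counted per gene with featureCounts, and the strand setting, annotation and versions are not given in the sources used here. The deposited values are a normalized signal, each gene's count divided by 1 DESeq2 size factor per sample. Whole reads came back for 100% of values (tolerance 0.01), with totals of 18116816 to 21488793 per sample. Columns of the authors' own comparison (3: fold change and p-values) were not used. Genes were followed by Ensembl identifier, and positions and exon lengths came from GENCODE 44, which held 19742 of the 19823 identifiers.

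Genes with more than 5 reads in at least 4 samples (18130) were fitted with limma 3.58.1 (R 4.3.3, trend, robust) on log2(normalized count + 1), untreated against isoproterenol, two-sided, with Benjamini-Hochberg adjustment over all of them. Groups and replicate numbers came from the sample titles. Deviations from the group means correlated at 0.269, 0.493 and 0.388 in same-numbered samples (11587 genes), all over the limit of 0.1, so the blocked fit is given beside each result it changes. The other matchings of numbers gave mean correlations of −0.195 to 0.163. Alternatives were edgeR 4.0.16 and DESeq2 1.42.0 on the reads, other scaling, filters and pseudocounts, and leaving out samples, and leaving out pairs with the block was added after seeing the data. Only the limma and edgeR fits without the block were tested on simulated counts. The fits with the block, which gave every member past FDR 0.05, and DESeq2 were not tested in this way. Members were matched by gene symbol alone, and the families and other lists were chosen with earlier results of these data known. Members were described with sample values if they passed FDR 0.05 in limma with or without the block, were among the 10 of smallest p, led their family per kilobase or were on the study's target list (32 in all). From other lists, genes past FDR 0.05 or else the 3 of smallest p with the block were named, and SEMA4F, ROBO2, EPHA2, EFNA1 and any other gene outside these rules were named after their values were seen.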

Additional observations from a re-analysis of the deposited data

How the results depend on the processing

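Without the block, 0 members passed FDR 0.05 in either direction under edgeR, DESeq2, pseudocounts of 0.5 and 5, no filter, a mean of at least 50, TMM and total-count scaling or any sample left out (14 alternatives), and the smallest adjusted p was 0.0712 (SEMA5B in limma without isoproterenol replicate 2). With the replicate block, 6 rose and 7 fell in limma and again 6 and 7 in edgeR. Without pairs 1, 2 and 3 and with the block, 6, 6 and 4 members rose and 4, 5 and 3 fell, EPHB2 among the 5 though not among the 7. For the effectors and other cues together, 0 became 12 with the block in limma and 12 in edgeR, and 7, 9 and 5 without pairs 1, 2 and 3. The members' median ran from −0.0156 to 0.0230 as samples were left out, and the count without overlap, 7, from 11 to 19, where fewer samples make separation easier. Signs turned in 8 named members that passed under none of these alternatives. With the block, SEMA4A was −0.055 and EFNB3 −0.0196 without pair 1, and PLXNB2 −0.0062 without pair 3. As samples were left out, the changes of SEMA4A ran from −0.022 to 0.093, SEMA6B from −0.068 to 0.0065, NRP1 from −0.080 to 0.0056, EFNB3 from −0.0226 to 0.055, EPHA3 from −0.097 to 0.0102, NTN3 from −0.159 to 0.0626 and DCC from −0.0130 to 0.085. The cause was not tested. With 3 samples a group, changes within the intervals given could not be told from 0, and members under 50 counts (6) allow little.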
